A study of Mus musculus with 12 samples.

Results

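The cytosolic ribosomal protein genes encode the proteins that assemble with ribosomal RNA into the large and small subunits of the ribosome. Of 24421 genes in the deposited counts, 83 carry such a symbol: a name starting with Rpl or Rps and a number, or Rplp0, Rplp1, Rplp2 or Rpsa. By their symbols 46 belong to the large subunit, 30 to the small subunit and 7 are paralogs, extra copies that encode variants of a core protein (Rpl3l, Rpl7l1, Rpl10l, Rpl22l1, Rpl39l, Rps4l and Rps27l). Pseudogene rows do not match the rule. Rps3a1, Fau, Gnb2l1 (Rack1) and Rpl36al encode ribosomal proteins under other kinds of name and were kept as a separate list.

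Ribosomes need most core proteins in equal numbers, so cells usually hold the mRNAs of these genes at high and coordinated levels. Nearly all of these mRNAs begin with a 5′ terminal oligopyrimidine (TOP) tract, a C followed by a run of C and T, through which the kinase mTOR controls their translation and stability with the RNA-binding protein Larp1. MYC proteins, including MYCN, are known to raise transcription of genes for ribosome production.

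The cells were E14 mouse embryonic stem cells that express dCas_Alkbh5, a fusion of an inactive Cas protein with Alkbh5, an enzyme that removes the methyl mark m6A from RNA. They were grown on gelatin in serum and LIF, received a guide RNA plasmid and were kept 3 days in blasticidin at 8 µg/mL. All cultures, controls included, then spent 5 days in 200 nM INK128, an inhibitor of mTOR used to place these cells in a paused, diapause-like state. The 12 polyA libraries, each from 200000 cells, formed 3 groups of 4 by guide: Mycn-gRNA2, Mycn-gRNA3 and NT, which targets no gene. No library analysed here came from cells without INK128 or without the fusion. The sources used here give neither the promoter of the fusion nor whether replicates are separate cultures. The p-values therefore measure only spread among these libraries, and that spread may be technical.

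Libraries held 17248564 to 33819855 reads on genes, and 1.03% to 1.6% of all reads fell on ERCC spike-in RNAs added to the extracted RNA. Levels are given on one of 2 scales. The relative scale is CPM, read counts scaled to library depth, with library sizes adjusted by TMM, a scaling that centres most genes. The ERCC scale is reads per ERCC read, which follows RNA per extracted cell if cell counting and yield were equal. In these bulk libraries a change in RNA per cell and a change in the mix of cells cannot be told apart. A gene was called when edgeR's quasi-likelihood test gave an adjusted p under 0.05 over all 14497 genes tested. Both guides against NT means the average of the 2 guide groups set against NT, so a call there need not hold for each guide. Mycn itself ran from 136 to 146 CPM in NT, from 205 to 262 CPM with Mycn-gRNA2 and from 258 to 292 CPM in the Mycn-gRNA3 libraries, so the targeted gene was higher, not lower, in the guide libraries (log2 difference 0.86 ± 0.07 SE, edgeR adjusted p = 3.39e-06).

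The cultures also differed in ways that do not concern the ribosome. The summed level of Y chromosome transcripts was 0.0449 to 0.181 CPM in the NT libraries and 32.4 to 83.8 CPM in the guide libraries, so the cells' origin and the guide cannot be told apart. The marker calls that follow are on the relative scale, both guides against NT, where 14.9% of all genes rose and 13% fell. Embryonic stem cell markers summed to 5474 to 5903 CPM in NT and 4429 to 5224 CPM with the guides, and 4 of 10 fell. Per ERCC read 3 of these 10 rose and 0 fell, where 56.4% of all genes rose and 0.931% fell. Primitive endoderm markers summed to 204 to 275 CPM in NT and 321 to 382 CPM with the guides, while 7 of 10 rose and 1 fell. Fibroblast markers summed to 4.97 to 7.3 CPM in NT and 8.52 to 12.5 CPM with the guides; 4 of the 6 tested rose, and Postn and Lum were at or near 0. Trophoblast markers (38.7 to 55.7 CPM in NT, 49.5 to 59.3 CPM with the guides; 2 of 7 tested rose; Elf5 and Tpbpa at or near 0) and neural markers (341 to 412 and 288 to 391 CPM; 4 of 8 tested rose and 2 fell; Neurog2 at or near 0) overlapped between the groups. The part of these differences in any result below was not tested.

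In NT the core genes, here those of the 2 subunits without paralogs, spanned a wide range of levels. The highest level per kilobase of gene length was that of Rplp1, a protein of the acidic stalk that binds elongation factors, at 1863 ± 97.2 CPM per kilobase (SD, n = 4). Rps26, at the mRNA exit channel, followed at 1732 ± 138 and Rps2 at 1696 ± 122 CPM per kilobase, and the means ± SD of neighbours among these 3 overlapped. Rps12 (1479 ± 77), Rpl23a (1478 ± 31) and Rpl4 (1465 ± 41) did not differ beyond their SDs. Over the 72 core genes with a mean of at least 50 reads the median was 919 CPM per kilobase. The lowest of the 72 was Rps15a at 76.1 ± 4.22, whose gene length of 5134 bases in the table is the longest of the 72, followed by Rpl22 at 118 ± 5.21 CPM per kilobase.

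A further 4 core genes, singled out after their values were seen, were at or near 0 in every library, which goes against their role as parts of every ribosome. Rpl26 had 0 reads in all 12 libraries, which at 3 reads allows at most 0.174 CPM in the shallowest library, counting error only. Rpl30 had 121 reads over the 12 libraries, Rpl34 262 and Rps27 346. Each of these 4 rows shares most of its bases with another row on the same strand, and that other row has 0 reads. The overlap is 520 of 543 bases for Rpl26 (with Gm15772), 476 of 626 for Rpl30 (with Gm12191), 413 of 689 for Rpl34 (with Rpl34-ps1) and 345 of 575 for Rps27 (with Rps27rt). Levels of these 4 genes were therefore not read as expression, and whether the overlap is the cause was not tested. The other core genes had no same-strand overlap above 1 base. Rpl31 and Rpl5 overlap antisense genes (Tbc1d8 over 415 of 1253 bases, Fam69a over 964 of 2019), and the sources used here do not say whether counting used strand.

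The 83 genes took a similar share of reads in the NT and Mycn-gRNA2 libraries and a larger one with Mycn-gRNA3. The share of reads on genes was 5.23%, 5.63%, 5.35% and 5.01% in the NT libraries (replicates 1 to 4). It was 4.97%, 5%, 5.5% and 5.76% with Mycn-gRNA2, and 5.64%, 5.93%, 6.12% and 5.76% with Mycn-gRNA3. All 4 Mycn-gRNA3 libraries lay above all NT libraries, though only just at the closest pair (5.64% against 5.63%), while the Mycn-gRNA2 libraries overlapped both groups. The group mean was 5.3% ± 0.261 (SD, n = 4) for NT, 5.31% ± 0.389 for Mycn-gRNA2 and 5.86% ± 0.209 for Mycn-gRNA3. As a sum over genes chosen for this description the share was given no test.

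**Figure D1:**
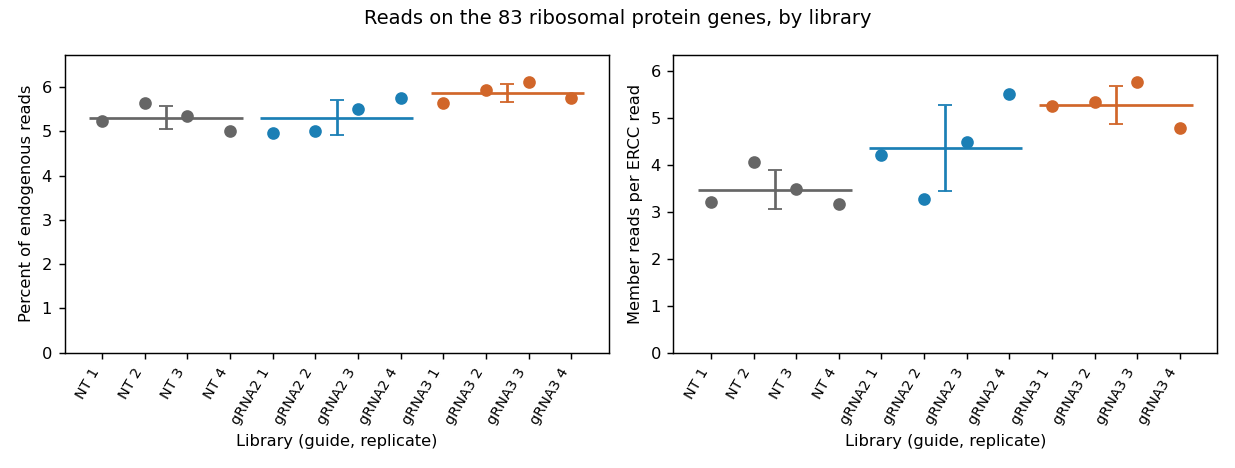
Percent of reads on genes (left) and reads per ERCC read (right) that fell on the 83 ribosomal protein genes, 1 point per library, with group means (lines) and SD (bars, n = 4). Mycn-gRNA3 libraries sit at 5.64% to 6.12% and NT libraries at 5.01% to 5.63% on the left; on the right NT libraries lie between 3.17 and 4.06 and Mycn-gRNA3 libraries between 4.78 and 5.78.

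Relative to the transcriptome, few members rose and none fell. With both Mycn guides against NT, 8 of the 82 tested members rose and 0 fell, where 14.9% of all genes tested rose and 13% fell. By unadjusted p under 0.05, 16 members differed (19.5%), 1 of them lower (Rps2), where 39.2% of all genes tested did; DESeq2 called 9 higher and 0 lower. The median log2 difference was 0.08 over the members and -0.003 over all genes tested. This median changed sign with the replicates used: it was -0.0273 from replicates 1 and 2 alone, with 0 members called (edgeR; 5 of 81 at unadjusted p under 0.05; 1.04% of all genes rose), and 0.17 from replicates 3 and 4 alone, with 37 called (22.7% of all genes rose). Among core genes 3 of 45 in the large subunit (Rpl18, Rpl36, Rpl41) and 1 of 30 in the small subunit (Rps12) rose, and among the paralogs 4 of 7 (Rpl3l, Rpl10l, Rpl39l, Rps27l). All but Rpl26 were tested, but Rpl30 and Rpl3l passed the filter on low counts only through the guide libraries, where they are higher. Their differences were favoured by that filter and are given as values only. Counts of called members here and below include them where they were called, and are no test of Rpl30 or Rpl3l.

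Rps12, a small-subunit protein near the beak of the subunit, had the lowest adjusted p among the core genes. It had 778, 797, 783 and 708 CPM in the NT libraries, 851, 811, 855 and 982 CPM with Mycn-gRNA2 and 926, 955, 1028 and 992 CPM in the Mycn-gRNA3 libraries. All 8 guide libraries were above all 4 NT libraries, and the log2 difference was 0.27 ± 0.06 (SE, edgeR adjusted p = 0.00505). Among the 82 members Rps12 and Rpl41 separated in this way, as did Rpl3l, which the filter favoured, against 8.56% of all genes tested, and no member lay below all NT libraries in all 8, against 6.87%.

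Rpl41 encodes the smallest ribosomal protein, a peptide at the interface of the subunits. Its levels were 596, 615, 470 and 598 CPM in NT, 1158, 636, 727 and 757 CPM with Mycn-gRNA2 and 713, 768, 874 and 778 CPM in the Mycn-gRNA3 libraries. Every guide library was higher than every NT library, and replicate 1 of Mycn-gRNA2 was far above the others. The log2 difference of Rpl41 was 0.49 ± 0.13 (SE, edgeR adjusted p = 0.0147), the call ended without NT replicate 3 (0.064), and without Mycn-gRNA2 replicate 1 the difference was 0.38 (edgeR adjusted p = 0.00138).

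Rpl18, a large-subunit protein, had 542, 574, 531 and 501 CPM in NT, 430, 632, 728 and 828 CPM with Mycn-gRNA2 and 765, 791, 873 and 805 CPM in the Mycn-gRNA3 libraries. The first Mycn-gRNA2 library was the lowest of all 12, and the other 7 guide libraries were above all NT libraries. The log2 difference of Rpl18 was 0.44 ± 0.13 (SE, edgeR adjusted p = 0.0195), and the call ended without NT replicate 3 (0.0567) or NT replicate 4 (0.0661). Rpl36, another large-subunit protein, had 256, 268, 262 and 239 CPM in NT, 247, 260, 289 and 340 CPM with Mycn-gRNA2 and 336, 336, 363 and 332 CPM in the Mycn-gRNA3 libraries. Here the Mycn-gRNA2 libraries overlapped NT and the Mycn-gRNA3 libraries did not. Its log2 difference was 0.28 ± 0.08 (SE, edgeR adjusted p = 0.0135), and the call ended without NT replicate 4 (0.0555).

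**Figure D2:**
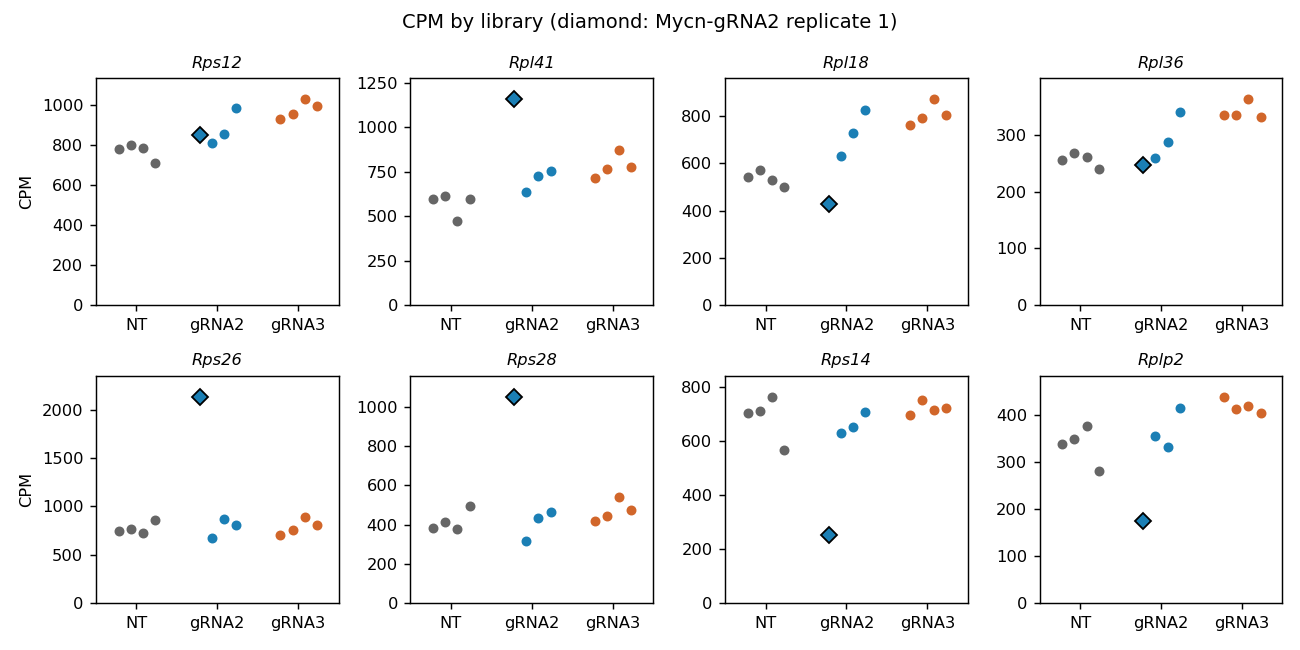
CPM of 8 core genes in each library, grouped by guide, with replicate 1 of Mycn-gRNA2 as a black-edged diamond. Rps12 and Rpl41 separate the guide libraries from NT, while Rps26 (2138 CPM), Rps28 (1052 CPM), Rps14 (254 CPM) and Rplp2 (174 CPM) stand apart in that library alone.

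The other 68 of the 72 core genes had log2 differences from -0.15 to 0.31 that did not pass the test, and the SE of a core gene ran from 0.048 to 0.24. At the low end, Rps2 had 1781, 1812, 1557 and 1628 CPM in NT, 1406, 1611, 1465 and 1443 CPM with Mycn-gRNA2 and 1697, 1524, 1559 and 1561 CPM in the Mycn-gRNA3 libraries. The groups of Rps2 overlapped, with a log2 difference of -0.15 ± 0.06 (SE, edgeR adjusted p = 0.0845). Without Mycn-gRNA2 replicate 2 this difference passed the test at -0.17 (edgeR adjusted p = 0.043). Rpl13a, known for a role in inflammatory translation control beside its place in the ribosome, differed by -0.12 and Rpl5, which carries 5S rRNA and can bind Mdm2, by -0.09. Of the stalk proteins, Rplp0 differed by 0.08, Rplp1 by 0.28 and Rplp2 by 0.12, and Rpsa, the small-subunit protein also known as the laminin receptor, by 0.02, none of them past the test.

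**Figure D3:**
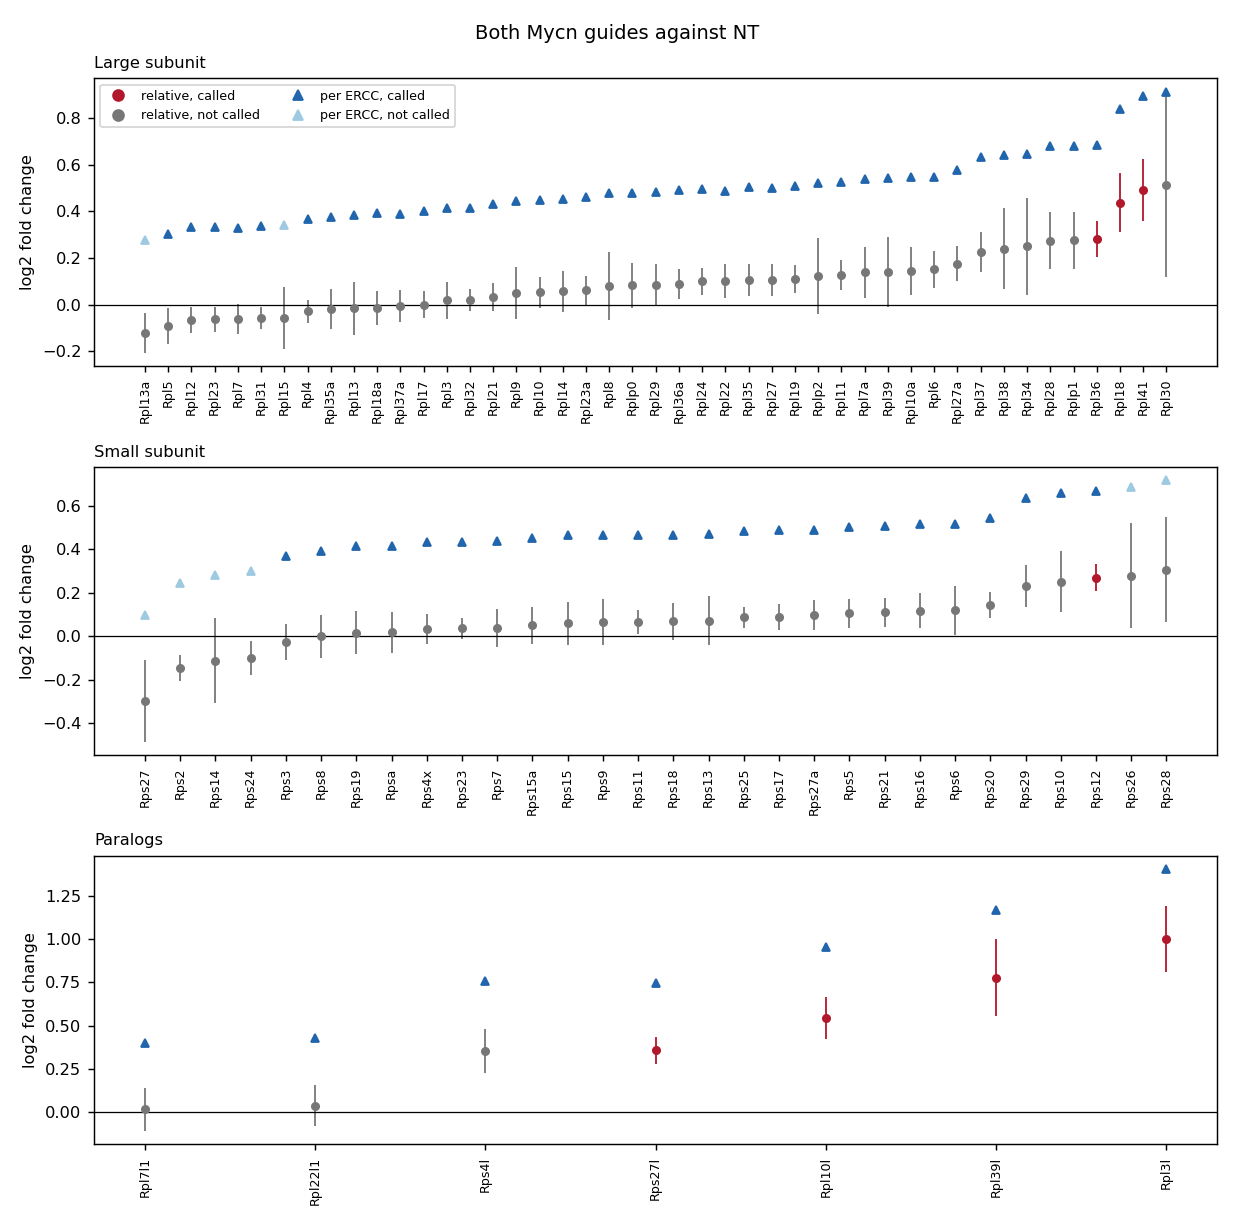
Log2 difference of both Mycn guides against NT for the 82 tested members, sorted within the large subunit, small subunit and paralogs. Circles with SE bars are relative to the transcriptome (red: called, 8 genes) and triangles are per ERCC read (dark: called, 74 genes); all triangles lie above 0.

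The 2 guides were then compared apart. Both comparisons share the NT libraries, so their values are given side by side. Relative to the transcriptome 3 of 82 members rose with Mycn-gRNA2 (Rpl3l, Rpl41, Rps27l), where 10.1% of all genes rose, and 13 rose with Mycn-gRNA3, where 14.8% did. Those 13 were the 8 named above and Rpl27a, Rpl37, Rplp1, Rps29 and Rps4l. Rpl3l, which the filter favoured, is in both counts. No member fell with either guide in edgeR, where 7.05% and 12.2% of all genes fell; at unadjusted p under 0.05, Rpl12, Rpl13a and Rps2 were lower with Mycn-gRNA2 and no member was lower with Mycn-gRNA3. The member median was 0.01 with Mycn-gRNA2 and 0.13 with Mycn-gRNA3.

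Rplp1 is one of the members called with Mycn-gRNA3 and not with Mycn-gRNA2. It had 903, 915, 854 and 817 CPM in NT, 623, 865, 976 and 1174 CPM with Mycn-gRNA2 and 1137, 1181, 1369 and 1221 CPM in the Mycn-gRNA3 libraries. The Mycn-gRNA2 libraries spanned both sides of the NT range and the Mycn-gRNA3 libraries were all above it. The log2 difference of Rplp1 was 0.49 ± 0.14 (SE) with Mycn-gRNA3 (edgeR adjusted p = 0.0191) and 0.06 ± 0.14 with Mycn-gRNA2 (edgeR adjusted p = 0.813). In 30 of 82 members all 4 Mycn-gRNA3 libraries were above all 4 NT libraries, against 20.8% of all genes tested. These 30 include Rpl3l, which the filter favoured. Members share the same libraries, so this count is a description and no test.

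The difference between the guides was tested directly. Between Mycn-gRNA3 and Mycn-gRNA2, edgeR called 0 of 82 members and 0% of all genes in either direction on the relative scale. By unadjusted p under 0.05, 17 members differed (20.7%), where 8.79% of all genes did; no other tool was run on this comparison. The guides were therefore not shown to differ for any single member. Counts per guide changed with single libraries. With Mycn-gRNA2, 1 member rose without NT replicate 3 (7.37% of all genes), 7 without its own replicate 1 (15.2%) and 6 without its own replicate 2 (11.4%). A single member fell without NT replicate 4 (4.57% of all genes), its own replicate 2 (8.14%) or its own replicate 4 (5%). With Mycn-gRNA3, 7 rose without NT replicate 4 (11.1% of all genes) and 8 without its own replicate 3 (10.8%).

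The first Mycn-gRNA2 library stood apart in how the core genes related to each other. For each of the 72 core genes with at least 50 reads the log2 CPM in a library was set against its mean in NT. The SD of these deviations over the genes was 0.525 in replicate 1 of Mycn-gRNA2 and 0.0311 to 0.164 in the other 11 libraries. Among 5513 other genes of log2 CPM above 5 that SD was also largest in this library, at 0.367, against 0.0801 to 0.309 elsewhere. It held the highest of the 12 values for 14 core genes and the lowest for 38, where it was highest for 26.8% and lowest for 30.8% of the other genes. Replicate 3 of Mycn-gRNA3 held the highest value for 39 core genes and the lowest for 0, where it was highest for 12.5% and lowest for 15.3% of the other genes. No label sets either library apart.

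**Figure D4:**
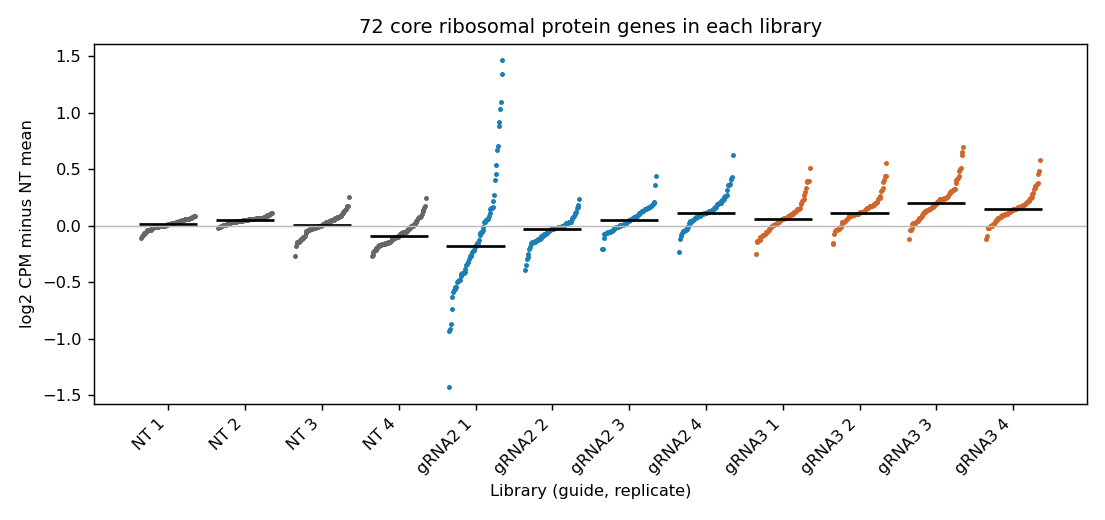
Deviation of log2 CPM from the NT mean for 72 core genes in each library, sorted within the library, with the library median as a black line. Deviations in the first Mycn-gRNA2 library run from -1.43 to 1.47; in the other libraries the SD over genes is 0.0311 to 0.164.

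The genes at both ends of the first Mycn-gRNA2 library are named here after their values were seen. Those more than 0.5 above the NT mean were Rps26 (1.47), Rps28 (1.34), Rpl38 (1.09), Rpl41 (1.03), Rpl39 (0.92), Rps10 (0.88), Rps6 (0.71), Rpl28 (0.68) and Rpl10a (0.54). Those more than 0.5 below were 12, with Rps14 (-1.43), Rplp2 (-0.93), Rpl15 (-0.91), Rpl8 (-0.87) and Rpl13 (-0.73) lowest. Both subunits were present at each end.

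Rps26 had 746, 770, 723 and 864 CPM in NT, 2138, 673, 869 and 812 CPM with Mycn-gRNA2 and 701, 761, 886 and 810 CPM in the Mycn-gRNA3 libraries. Rps14, a small-subunit protein of the platform, had 706, 713, 765 and 568 CPM in NT, 254, 629, 652 and 707 CPM with Mycn-gRNA2 and 698, 753, 714 and 725 CPM in the Mycn-gRNA3 libraries. In both genes a single value lies outside the range of the other 11. Without that library the log2 difference of Rps26 moved from 0.28 to 0.02, of Rps28 from 0.31 to 0.06 and of Rps14 from -0.11 to 0.01, none past the test with or without it.

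Reads on large-subunit over small-subunit genes came to 1.31 in this library and to 1.46 to 1.54 in the others. Reads on 9 pseudogene or retrotransposed rows, such as Rps15a-ps6 and Rpl37rt, came to 2.72 per 1000 member reads there, 1.45 in NT replicate 4 and 0.483 to 1.06 elsewhere. Across other genes the deviation in this library had a Spearman correlation of -0.39 with transcript GC content (5297 genes), and across the 72 members one of -0.02; genes are not independent replicates and share the library. The part of GC content or of pseudogene rows in the pattern was not tested.

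Leaving out this library raised the counts. Relative to the transcriptome 21 members then rose with both guides and 0 fell, where 21.9% of all genes rose and 20.2% fell. The members that rose were thus 25.6% of those tested, against 9.76% with all libraries. By unadjusted p under 0.05, Rps2 and Rps24 were lower. With Mycn-gRNA2 alone 7 rose (15.2% of all genes) and with Mycn-gRNA3 29 rose (21.9%). No NT or Mycn-gRNA3 library was left out here, and the member median with Mycn-gRNA3 stayed at 0.13. The added Mycn-gRNA3 calls came with a smaller spread, which all groups share, and not with larger differences. Rpl8, for example, kept a difference of 0.25 with Mycn-gRNA3 while its SE went from 0.17 to 0.068. The library was left out after its values were seen. Gains with both guides included Rps4l at 0.43 (edgeR adjusted p = 7.14e-05), Rplp1 at 0.35 (0.00194), Rps29 at 0.28 (0.00885) and Rpl37 at 0.27 (0.00233). The member median was 0.09 without this library and 0.08 with it. The only other library whose omission moved the count with both guides by over 1.5 times was NT replicate 3, without which 5 rose (11.3% of all genes).

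Start-site sequences of RefSeq (GRCm38.p6) were matched by symbol for 62 of the 83 genes. Rpl36 had no entry. They are shown for 3 genes that rose (Rps12, Rpl41, Rpl18), for 6 others at the high end of the first Mycn-gRNA2 library (Rps26, Rps28, Rpl38, Rps10, Rps6, Rpl28) and for 3 at its low end (Rpl15, Rplp2, Rpl13), to let their TOP tracts be compared. Rpl41 was also at that high end, and Rpl39 and Rpl10a of the high end are not shown. Each window is read 5′ to 3′ from 5 bases before the annotated start through its first 25 bases, and capitals mark its longest run of C and T.
Rps12: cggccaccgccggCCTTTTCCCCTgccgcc
Rpl41: ggCTCggaagtgacgacaccgagcacgcca
Rpl18: aggccgCTCTTTCCCCgcccactccggcgc
Rps26: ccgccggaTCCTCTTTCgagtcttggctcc
Rps28: gcggTCTCgcgagagcgaaagtgaggcgtg
Rpl38: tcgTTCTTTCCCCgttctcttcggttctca
Rps10: cgCCCCTTCCTTTCCagcctccgcctcgga
Rps6: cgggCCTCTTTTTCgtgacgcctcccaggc
Rpl28: tgTCTCTCTTTCCgtctccggccgccatag
Rpl15: gCCTTCTTCCTTTCCTCTggcggcagccat
Rplp2: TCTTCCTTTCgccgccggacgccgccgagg
Rpl13: cctgaTTTTgattggcgtttgagattggcc

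These windows lie at chr10:23787185-23787214 (Rps12, minus strand), chr10:128549144-128549173 (Rpl41, minus), chr7:45718066-45718095 (Rpl18, plus) and chr10:128626482-128626511 (Rps26, minus). The others lie at chr11:114668575-114668604 (Rpl38, plus), chr17:27635220-27635249 (Rps10, minus), chr14:18270962-18270991 (Rpl15, minus) and chr7:141447646-141447675 (Rplp2, plus), and at chr17:33824538-33824567 (Rps28, minus), chr4:86857343-86857372 (Rps6, minus), chr7:4792960-4792989 (Rpl28, plus) and chr8:123102345-123102374 (Rpl13, plus). In these 12 windows the longest C and T run was 17 bases in Rpl15 and 9 to 13 bases in 8 others. It was 3 bases in Rpl41, which rose and was also at the high end, 4 in Rps28 at the high end and 4 in Rpl13 at the low end. The annotated start often lies a few bases from the tract, so the first base of the mRNA was not read from it. The 62 matched genes have 74 windows in all, and only the first listed window of a gene is shown. Run lengths at any other annotated start of these 12 genes were not read.

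Short motifs were counted in all RefSeq windows, and a gene counted when any of its windows held the motif. CTTTC on the sense strand, from 20 bases before to 50 after the start, was found in 31 of the 62 matched members (50%) and in 10.4% of 27025 genes. CTCTTT, which partly overlaps it, was found in the same interval in 19 members (30.6%) and in 3.04% of genes. CCGGAAG, the core letters bound by ETS factors, occurred on either strand of the 300-base window in 25 members (40.3%) and 9.93% of genes. The E-box CACGTG, the core letters bound by MYC dimers, occurred in 6 members (9.68%) and 8.09% of genes. CTTTC was found in 6 of 9 matched genes at the high end of the first Mycn-gRNA2 library and in 6 of 10 at the low end. These are matches of letters, not binding sites.

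Gene length moved with the differences. Short genes were higher with the guides whether or not they encode ribosomal proteins, and most members are short. Among genes of mean log2 CPM above 5, paralogs included, those of at most 600 bases had a median log2 difference of 0.12 in 29 members and 0.19 in 44 other genes, of which 13.8% and 29.5% rose. Over 600 and up to 1200 bases the medians were 0.07 in 32 members and 0.1 in 250 other genes. Over 1200 and up to 2000 bases they were 0.02 in 11 members and 0.04 in 749 other genes. The Spearman correlation of length with the log2 difference was -0.53 across the 72 core genes and -0.27 across 5513 other genes, as a description of genes that share the same libraries. Fits with the length trend taken out are given below, and the part of length in the members' differences was not tested.

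**Figure D5:**
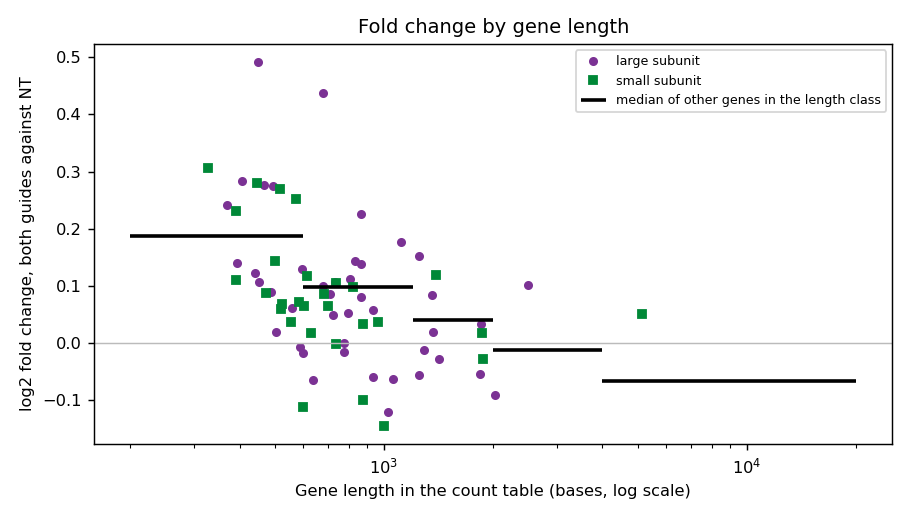
Log2 difference of both Mycn guides against NT (relative scale) against gene length on a log axis, for 72 core genes (circles: large subunit, squares: small subunit), with the median of other genes in each length class as a black line. The lines fall from 0.19 for genes up to 600 bases to -0.07 above 4000 bases; the last line is open to the right.

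With the length trend taken out of each library, 6 members rose and 4 fell (15.8% and 11.6% of all genes), and the member median turned from 0.08 to -0.02. The member median thus had opposite signs with and without this step, and the reason was not tested. The calls of Rps12 (0.14, edgeR adjusted p = 0.0568), Rpl36 (0.14, 0.0595) and Rpl41 (0.37, 0.121) ended. Rpl18 (0.32, edgeR adjusted p = 0.0154), Rpl10l, Rpl39l and Rps27l passed the test in the same direction, and Rps4l joined them (0.27, 0.0462). Rpl3l was also called, but the filter favoured it, so its call is no support. The 4 members lower after this step were Rps2 (-0.21, edgeR adjusted p = 0.0202), Rpl13a (-0.19, 0.0289), Rpl12 (-0.17, 0.00593) and Rpl37a (-0.12, 0.0418), which is named only for this call. With trends of length and GC content both taken out, 6 rose and 5 fell (16% and 12.9% of all genes). Without the first Mycn-gRNA2 library, 13 rose and 13 fell after the length step (22.2% and 19% of all genes). With both trends taken out, 10 rose and 18 fell without it (21% and 19% of all genes), and the member median was -0.04.

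Per ERCC read, nearly all members rose, as did most of the transcriptome. The median of all genes tested moved by 0.39 on this scale. All genes of a library are divided by the same ERCC total, so the calls below share its error and are not separate results. The SD of library medians of the core genes within a group averaged 0.197 on this scale and 0.083 on the relative scale. The shares over all genes also include low-count genes, while most members have high counts. With both guides 74 of 82 members rose and 0 fell, where 56.4% of all genes rose and 0.931% fell; by unadjusted p under 0.05, 77 members differed (93.9%), none of them lower, where 63.5% of all genes did. On the deposited log2 values limma called 70 of 77 members higher, where 61.1% of 12042 genes were. By class 43 of 45 in the large subunit, 24 of 30 in the small subunit and all 7 paralogs were called higher. These include Rpl30, Rpl34 and the low paralogs Rpl3l and Rpl39l, of which Rpl30 and Rpl3l were favoured by the filter. Of the 77 members with a mean of at least 50 reads, 70 rose. The member median was 0.48, and thus above that of all genes. The 8 not called were Rpl13a, Rpl15, Rps2, Rps14, Rps24, Rps26, Rps27 and Rps28, with log2 differences from 0.1 (Rps27) to 0.72 (Rps28).

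Reads on members per ERCC read were 3.21, 4.06, 3.48 and 3.17 in NT, 4.23, 3.28, 4.49 and 5.51 with Mycn-gRNA2 and 5.26, 5.34, 5.78 and 4.78 in the Mycn-gRNA3 libraries. The Mycn-gRNA3 libraries did not overlap NT and the Mycn-gRNA2 libraries did. With Mycn-gRNA2 alone 25 members rose (26.3% of all genes) and with Mycn-gRNA3 76 (60.7%); without the first Mycn-gRNA2 library these were 41 (30.1%) and 81 (64.8%), and 79 with both guides (58.2%). No member fell in any of these (edgeR; none lower by unadjusted p under 0.05), where 0.517% and 0.504% of all genes fell with all libraries and 0.909%, 0.752% and 1.27% without that one. Rps12 had 46.4, 58.6, 51.4 and 44.4 reads per 1000 ERCC reads in NT, 70.6, 51.7, 70.3 and 94.2 with Mycn-gRNA2 and 88.2, 88.9, 97.6 and 81.3 in the Mycn-gRNA3 libraries. Its log2 difference on this scale was 0.67 ± 0.14 (SE, edgeR adjusted p = 0.00017). No member differed between the 2 guides in edgeR per ERCC read, where 0.0069% of all genes did; by unadjusted p under 0.05, 38 members did (46.3%), where 11% of all genes did.

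The paralogs include tissue-restricted genes with very low levels in these cells. Rpl3l, known from heart and skeletal muscle, was lowest of all tested members at 0.266 ± 0.0379 CPM per kilobase in NT, and Rps4l was highest of the paralogs at 194 ± 11.7. Rpl10l and Rpl39l are known from the male germ line, and Rps27l is known as a target of p53. Reads from these copies can be hard to assign where they resemble the core gene, so their values are less certain. This holds for Rpl10l and Rps4l above all, each a single block in the table without introns.

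Rps27l had 69.9, 69.9, 69.4 and 68.9 CPM in NT, 92.7, 98.2, 95.5 and 85.6 CPM with Mycn-gRNA2 and 68.4, 90.6, 93.4 and 88.8 CPM in the Mycn-gRNA3 libraries. All guide libraries but the first Mycn-gRNA3 library were above the narrow NT range. The log2 difference of Rps27l was 0.36 ± 0.08 (SE, edgeR adjusted p = 0.00359), and the call remained without any 1 library. Rpl10l had 5.69, 4.49, 4.35 and 4.09 CPM in NT, 6.13, 5.66, 6.01 and 6.68 CPM with Mycn-gRNA2 and 7.22, 8.09, 8.62 and 6.11 CPM in the Mycn-gRNA3 libraries. A single guide library, at 5.66 CPM, was below the highest NT library. The log2 difference of Rpl10l was 0.54 ± 0.12 (SE, edgeR adjusted p = 0.00428).

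Rpl3l had 0.452, 0.493, 0.356 and 0.396 CPM in NT, 0.826, 0.596, 0.668 and 0.906 CPM with Mycn-gRNA2 and 0.888, 1.13, 0.869 and 0.928 CPM in the Mycn-gRNA3 libraries. The guide libraries did not overlap NT, and the log2 difference was 1 ± 0.19 (SE). It rests on a mean of under 50 reads in a gene that passed the filter only through the guide libraries, so it is given as a value with no test. Rpl39l, also under 50 reads, had 0.813, 0.897, 0.673 and 1.19 CPM in NT and 1.02 to 2.28 CPM over the 8 guide libraries. Its log2 difference was 0.78 ± 0.22 (SE, edgeR adjusted p = 0.018), and the call ended without NT replicate 1 (0.0541) or NT replicate 3 (0.0735). Rps4l differed by 0.35 (edgeR adjusted p = 0.0505), and Rpl22l1 and Rpl7l1 by 0.04 and 0.02.

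Set against its core partner, each paralog gave a ratio within the same library. The log2 ratio of Rpl10l to Rpl10 averaged -7.3 ± 0.173 for NT (SD, n = 4), -6.89 ± 0.164 for Mycn-gRNA2 and -6.73 ± 0.202 for Mycn-gRNA3, so Rpl10l reads were 0.636%, 0.843% and 0.941% of Rpl10 reads. Rpl3l to Rpl3 was higher with the guides by 0.85, Rpl39l to Rpl39 by 0.6 and Rps4l to Rps4x by 0.3. For Rpl39l to Rpl39 the guide libraries (-8.19 to -6.78) overlapped NT (-8.42 to -7.65). For Rps4l to Rps4x the guide libraries (-2.97 to -2.28) lay on both sides of NT (-2.81 to -2.7). Rpl22l1 to Rpl22 and Rpl7l1 to Rpl7 moved by -0.04 and 0.06, both by less than the SD between NT libraries (0.311 and 0.0638). Rpl36al, a copy of Rpl36a outside the name rule, ran at 115 CPM in NT, 155 CPM with Mycn-gRNA2 and 155 CPM in the Mycn-gRNA3 libraries, and its ratio to Rpl36a was higher by 0.34. The ratio of Rps27l to Rps27 was not read, since Rps27 is one of the 4 genes near 0.

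Among ribosomal protein genes outside the name rule, Rpl36al rose (0.43 ± 0.07 SE, edgeR adjusted p = 0.000873), and Rps3a1 (-0.01), Fau (0.17) and Gnb2l1 (-0.01) did not pass the test. Of 25 other mRNAs known to carry a TOP tract, 6 rose and 3 fell, beside 14.9% and 13% of all genes, with a median of 0.1 beside 0.08 over the members. The initiation factor subunit Eif3l rose by 0.26 (edgeR adjusted p = 0.00172), the import receptor Ipo5 by 0.23 (0.0137) and the elongation factor subunit Eef1d by 0.34 (0.0159), while Tpt1, a growth-linked protein with a classical TOP tract, fell by 0.17 (0.0128) and the helicase Eif4a2 fell by 0.29 (0.0155). The nucleolar chaperone Npm1 rose by 0.27 (edgeR adjusted p = 0.016).

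Of 22 ribosomal protein chaperones and regulators of TOP translation, 2 rose in edgeR, beside 14.9% of all genes. They were the cap-binding protein Eif4e (0.34 ± 0.07 SE, edgeR adjusted p = 0.00203) and Larp1, which binds TOP mRNAs (0.19 ± 0.05 SE, edgeR adjusted p = 0.0173). Per ERCC read 22 of the 25 other TOP mRNAs and 21 of the 22 chaperones and regulators rose, beside 56.4% of all genes.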

How the data were processed

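The count table deposited by the authors holds raw read counts per gene and for 92 ERCC RNAs. The submitters' processing notes name Trim Galore 0.4.0, featureCounts (Subread 1.5.0), edgeR 3.32.1 and the build mm10. The sources used here do not give the aligner, annotation release or strand setting. The deposited log2 table (12042 genes) is log2(count + 0.5) less 1 constant for each library, within 1.01e-13. Those constants lie within 0.0015 of ERCC TMM scaling.

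The test was edgeR 4.0.16 in R 4.3.3 (robust quasi-likelihood fit over 12 libraries with group as the only term, filterByExpr, Benjamini-Hochberg adjustment). Library sizes were TMM-scaled or set to ERCC totals. SE is the log2 difference over the root of F. DESeq2 1.42.0 and limma 3.58.1 were alternatives. Other alternatives were RLE size factors, no filter, TMM without the members, a replicate block, pseudogene reads added, replicates 1 and 2 or 3 and 4 alone, each library left out and a length trend. Trends of length and GC content (lowess, span 0.3), the omission of Mycn-gRNA2 replicate 1 from every comparison and the omission of members under 50 reads were chosen after seeing the data. CPM log2 values used a prior count of 2. On counts simulated for both guides against NT over 14497 genes, 10% of 1.2-fold, 86% of 1.5-fold, 100% of 2-fold and 98% of 4-fold changes were recovered, and 9 unchanged genes were called. Reads carry no molecular identifiers, so limits from counts cover counting error only. Replicate pairs differed beyond sampling noise (chi-square per degree of freedom 8.6 to 73.2), so none was treated as a duplicate.

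Deviations from group means of same-numbered libraries correlated at 0.197 to 0.667 between the 2 guides. Those of differently numbered libraries ran from -0.675 to 0.513, so the ranges overlapped. The block changed no call between the guides. Between NT and the guides the correlation fell to -0.132, so the numbers were not taken to pair those.

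Named genes were those called or, per ERCC read, not called, the 3 highest and lowest differences and levels of each subunit, the paralog pairs, the stalk genes, Rpsa, Mycn and up to 6 called genes of each added list. Members and lists were chosen with earlier results of these data known. A gene of the list outside the name rule is not reported here.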

Additional observations from a re-analysis of the deposited data

Results flagged for a closer look

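Within groups of 4 libraries, a value counts as far from the others when its gap to the nearest value, over the range of the group, is above 0.829. Chance gives about 1 such group in 20. Over the members tested, 11 stood out in NT, 10 with Mycn-gRNA2 (replicate 1 in 8 of them) and 5 with Mycn-gRNA3. With Mycn-gRNA2 8.82% of all genes did so. No share over all genes is given for NT or Mycn-gRNA3, so their counts are not read as a trait of the members.

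In the first Mycn-gRNA2 library the ratio of large-subunit to small-subunit reads was low (gap over range 0.887), as were the levels of Rpl5 (0.904), Rps14 (0.886) and Rpl15 (0.855), and that of Rpl39 was high (0.864). NT replicate 4 was low for Rpl27a (0.936), Rpl13a (0.914), Rpl10 (0.843) and Rpl5 (0.836). NT replicate 3 was low for Rpl41 (0.886), and NT replicate 2 was high for Rpl23a (0.835, 0.8345 before rounding). With Mycn-gRNA3, replicate 1 was low for Rpl7l1 (0.884), Rpl7 (0.867) and Rps27l (0.838), and replicate 3 was high for Rpl36 (0.872). Mycn-gRNA2 replicate 3 was low for Rpl39l (0.839). Of these genes Rpl41, Rps27l, Rpl36 and Rpl39l were called higher in the average of both guides against NT. With Mycn-gRNA2 alone Rpl41 and Rps27l were called, and Rpl36 and Rpl39l were not.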

How the results depend on the processing

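With both guides, relative to the transcriptome, 8 members rose. RLE factors, no filter, TMM without the members, added pseudogene reads, DESeq2 and the omission of members under 50 reads gave 6 to 9 with 0 lower. A replicate block gave 9, 4 with Mycn-gRNA2, 13 with Mycn-gRNA3, 0 between guides and 75 per ERCC read; by it Rps4l was called with both guides (edgeR adjusted p = 0.0475). From replicates 1 and 2 alone 0 members were called (edgeR; 1.04% of all genes higher; median -0.0273), from replicates 3 and 4 alone 37 (22.7%; median 0.17); the cause was not tested. The length trend turned the median to -0.0188 and length with GC content to -0.0294. Without Mycn-gRNA2 replicate 2, Rps2 fell. Leaving out each library in turn, members called in either direction numbered 5 to 21 with both guides, 1 to 7 with Mycn-gRNA2, 7 to 14 with Mycn-gRNA3, 0 between guides and 50 to 79 per ERCC read, with medians of 0.04 to 0.1 and 0.4 to 0.56. Per ERCC read, ERCC TMM gave 75, no filter 76 and limma 70. Paralog ratios with a prior count of 0.5 and shares with pseudogene rows kept their direction. Depth limits Rpl3l, Rpl39l and the 4 genes near 0.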
